A study of Bos taurus with 12 samples.

Results

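LPL, CD36 and FABP3 serve the uptake of preformed fatty acids from the blood by the mammary secretory cell. These 3 genes were chosen by their cattle Ensembl IDs, ENSBTAG00000012855 for LPL, ENSBTAG00000017866 for CD36 and ENSBTAG00000016819 for FABP3. All 3 were found among the 24616 genes of the count table, and all 3 were among the 11323 genes that passed the filter on low counts. RNA was sequenced from milk fat of 6 early-lactation Holsteins. Each cow gave 1 control library and 1 library with lysine supplied beyond the rumen, so there were 6 control and 6 lysine libraries. The treatment label of the lysine libraries gives 63 days, while their titles carry only the code 63 (0 for controls); the labels do not settle whether that code is a time or an amount. No genotype or age is given, and each library is labelled with 1 cow. Every library comes from an adult lactating gland sampled through its milk, not from a biopsy.

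Milk fat globules bud from secretory cells and carry slivers of their cytoplasm, so their RNA samples these cells. In a ruminant gland the long-chain part of milk fat comes from circulating triglyceride and free fatty acids, and the shorter chains are made in the cell. LPL, lipoprotein lipase, is a secreted enzyme that splits the triglyceride of lipoproteins at the capillary wall and frees their fatty acids. CD36 is a membrane glycoprotein that binds long-chain fatty acids and helps them across the plasma membrane; it is also a component of the milk fat globule membrane. FABP3, the heart-type fatty acid binding protein, carries fatty acids through the cytoplasm and is a major fatty acid binding protein of the lactating gland.

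Library totals ran from 5.45 to 56.6 M counts (M, the prefix mega; median 20.8 M). One library stood apart from the rest: in the control library of cow 4394, 8.51% of genes expected at 20 counts or above had none, against 2.50% in the next library, the lysine library of the same cow. The main values of the 3 genes are therefore also given without that cow. Levels are CPM, counts per M counts of a library after correction of its total by TMM, a factor that keeps a few very abundant genes from setting the scale. The 3 genes had between 6984 and 118277 counts in a library, so counting error (95% Poisson interval) was at most 2.37% of a value; reads are not independent molecules, and this covers counting only. Levels are not compared between the genes, because no transcript lengths were used. In whole milk fat RNA, fewer secretory cells and less RNA per cell cannot be told apart.

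LPL, the lipase that starts uptake, varied from library to library without a common direction with lysine. Its normalised CPM in the control libraries was 2136 in cow 4319, 1048 in cow 4345, 1318 in cow 4381, 762 in cow 4383, 1251 in cow 4394 and 1463 in cow 4408. In the lysine libraries it was 1204, 1289, 2346, 1699, 822 and 1112 in the same order of cows. The 2 groups overlapped almost completely: cow 4319 had the highest control and cow 4381 the highest lysine library, and neither was high in both. The mean was 1330 ± 464 in control and 1412 ± 539 in lysine libraries (SD, n = 6 each). With lysine, LPL was higher in 3 of 6 cows and lower in the other 3, with a range from 0.56-fold in cow 4319 to 2.23-fold in cow 4383. The within-cow log2 fold change was 0.07 ± 0.28 (SE), with a 95% interval of -0.54 to 0.69 and an adjusted p of 1 (edgeR quasi-likelihood test, cows as blocks, Benjamini-Hochberg over 11323 genes; exact sign-flip permutation p = 0.813). No direction can be given, since the log2 fold change was -0.23 with library totals alone, -0.13 with log2 depth as a covariate, -0.08 without cow 4381 and -0.14 without cow 4383, but 0.26 without cow 4319, 0.22 without cow 4394 and 0.19 without cow 4408.

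CD36, the membrane carrier, had an even level in the control libraries and a wider one with lysine. Its normalised CPM in the control libraries was 1681 in cow 4319, 1312 in cow 4345, 1402 in cow 4381, 1173 in cow 4383, 1291 in cow 4394 and 1397 in cow 4408. In the lysine libraries it was 1235, 2216, 2384, 1807, 1457 and 1283 in the same order. With TMM, the lysine libraries of cows 4345, 4381 and 4383 lay above every control library, and the other 3 lay among the controls. The mean was 1376 ± 171 in control and 1730 ± 488 in lysine libraries (SD, n = 6 each); the difference in spread was not tested. With lysine, CD36 was higher in 4 of 6 cows, by 1.69-fold in cow 4345, 1.70-fold in cow 4381, 1.54-fold in cow 4383 and 1.13-fold in cow 4394, and lower in cows 4319 (0.73-fold) and 4408 (0.92-fold). The log2 fold change was 0.29 ± 0.22 (SE; 95% interval -0.19 to 0.78, or 0.88-fold to 1.71-fold), with an adjusted p of 1 by edgeR and an exact sign-flip permutation p of 0.188. It was 0.32 without cow 4394. Scaled to library totals alone it was -0.02, and 2 of 6 cows were higher. With that scaling only the lysine library of cow 4345 (3122 CPM) lay above every control library (highest 1824, cow 4394). The lysine library of cow 4381 (1392) lay among the controls, and that of cow 4383 (803) was the lowest of all.

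With TMM, FABP3, the carrier in the cytoplasm, differed mostly from cow to cow and little between the 2 libraries of a cow. Its normalised CPM in the control libraries was 1298 in cow 4319, 963 in cow 4345, 2013 in cow 4381, 2284 in cow 4383, 2684 in cow 4394 and 3111 in cow 4408. In the lysine libraries it was 1816, 804, 2152, 1857, 3671 and 2442 in the same order. Cow 4345 was the lowest and cows 4394 and 4408 the highest in both groups. The mean was 2059 ± 816 in control and 2124 ± 938 in lysine libraries (SD, n = 6 each). With lysine, FABP3 was higher in 3 of 6 cows, with within-cow changes from 0.78-fold in cow 4408 to 1.40-fold in cow 4319. The log2 fold change was 0.02 ± 0.20 (SE; 95% interval -0.43 to 0.47, or 0.74-fold to 1.38-fold), with an adjusted p of 1 by edgeR and an exact sign-flip permutation p of 0.938. Its sign was negative without cow 4319 (-0.07), without cow 4394 (-0.06) and with library totals alone (-0.28).

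**Figure D1:**
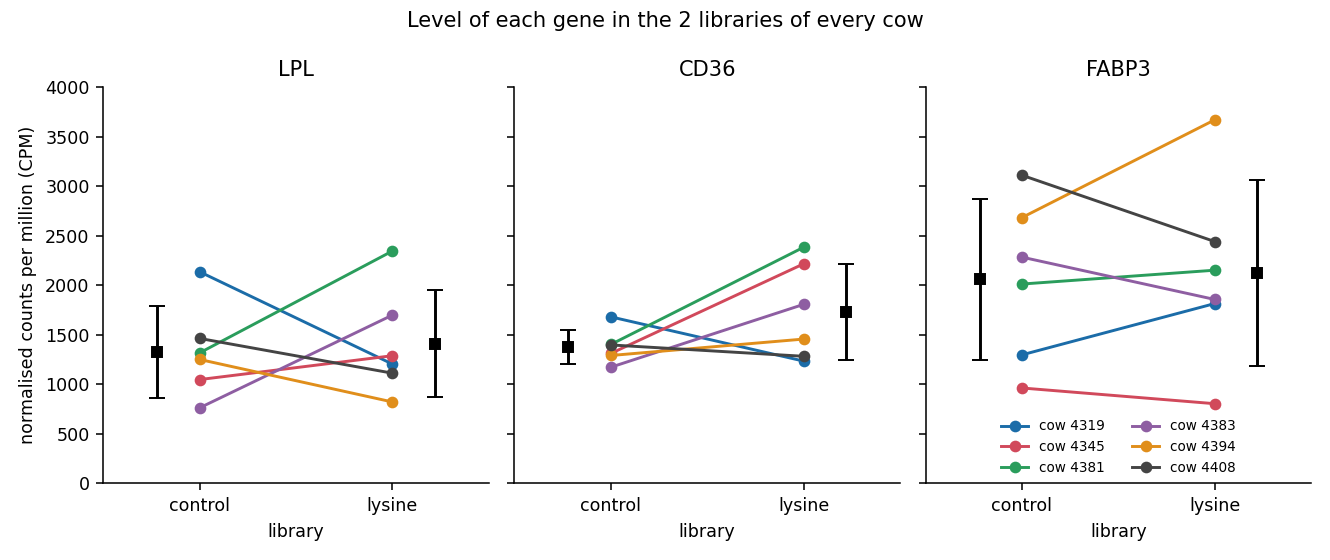
Normalised CPM (vertical axis, linear from 0) of LPL, CD36 and FABP3 in the control and lysine library of each cow; lines join the 2 libraries of a cow, and black squares with bars are the mean ± SD of the 6 libraries. Lines cross for LPL, 4 of 6 rise for CD36, and for FABP3 cow 4345 stays at the bottom and cows 4394 and 4408 at the top.

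None of the 3 genes passed the test of lysine against control, and neither did any other gene: 0 of 11323 were called at an adjusted p under 0.05 (0% of those tested), and 286 had an unadjusted p under 0.05 (2.53%) by edgeR, 543 by DESeq2 and 584 by limma voom. The smallest exact sign-flip p that 6 cows can give is 0.0313. The choice of scaling moved the median over all genes of the log2 fold change from 0.04 with TMM to -0.26 with library totals alone. Relative to that median, LPL stood at 0.04 and 0.03 under the 2 scalings, CD36 at 0.26 and 0.25, and FABP3 at -0.02 and -0.01 on the log2 scale. A change of scaling moves all genes of a library by the same amount on the log2 scale. That these positions were nearly the same follows from the calculation and is not a result about the 3 genes. The sign of each gene against 0 differed between the 2 scalings. The largest shift lay in cow 4383, whose lysine library had 86.8% of its counts in 10 genes and a TMM factor of 0.44. There FABP3 was 0.81-fold of the control with TMM and 0.29-fold with library totals alone. In the same order, LPL was 2.23-fold and 0.80-fold, and CD36 1.54-fold and 0.55-fold.

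**Figure D2:**
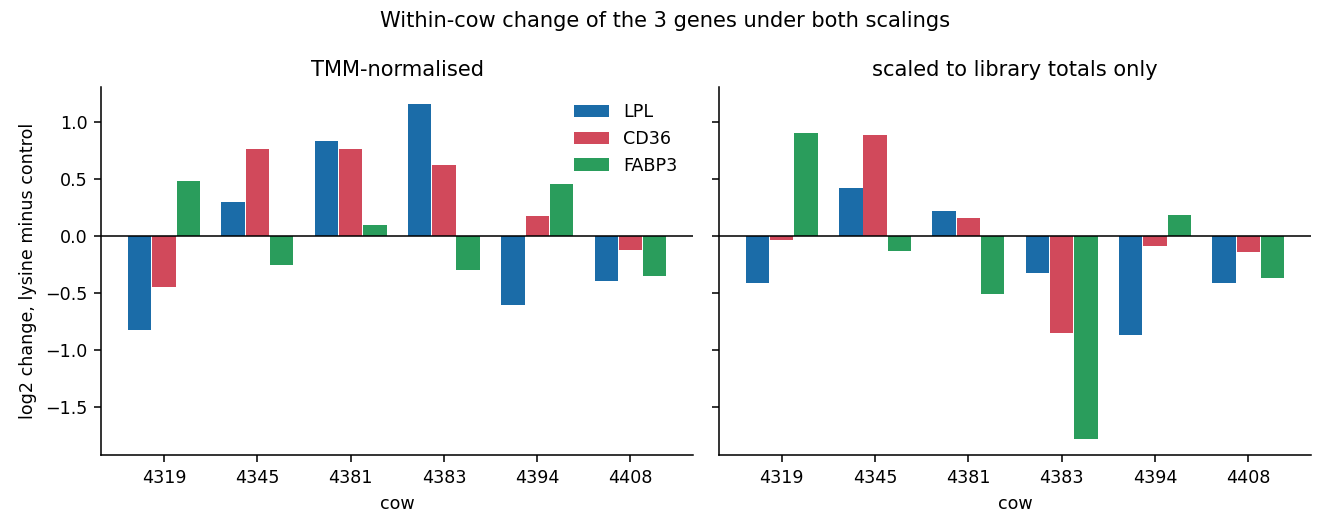
Within-cow log2 change (lysine minus control, vertical axis) of LPL, CD36 and FABP3 for each cow, with TMM on the left and library totals alone on the right. LPL and CD36 lie on the same side of 0 in 5 of 6 cows with TMM; the bars of cow 4383 differ most between the panels, with FABP3 at -1.78 on the right.

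The steadiness of FABP3 within a cow, as seen with TMM, was set against its spread between cows. Both libraries of cow 4345 lay between 804 and 963 normalised CPM, those of cow 4319 between 1298 and 1816, those of cow 4383 between 1857 and 2284, those of cow 4381 between 2013 and 2152, those of cow 4408 between 2442 and 3111, and those of cow 4394 between 2684 and 3671. Cows 4345 and 4319 were each below all cows that follow in this order. Neighbours did not separate beyond the spread of their libraries for cows 4383 and 4381, or for cows 4408 and 4394. The geometric mean level of the highest cow was 3.57 times that of the lowest. With TMM the 2 libraries of a cow differed by a median of 1.25-fold and at most 1.40-fold. Cow took 92.3% of the variance of log2 FABP3 over the 12 libraries, a larger share than for 98.5% of the 7358 genes averaging 5 CPM or more (median 57.0%).

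In the test of differences between cows, FABP3 had F = 6.31, an unadjusted p of 0.00427 (15.5% of all genes were under 0.05) and an adjusted p of 0.102 (edgeR quasi-likelihood F test), so it was not among the 161 genes called, 1.42% of those tested. DESeq2 gave FABP3 an adjusted p of 3.3e-06 where it called 13.4% of genes, limma voom gave 0.0178 where it called 5.02%, and edgeR without a low-count filter gave 0.0138 where it called 5.01%. Without cow 4345 the edgeR adjusted p was 0.812 (F = 2.25), and without cow 4394 it was 0.0934. With library totals alone the cow share of FABP3 was 68.0% (median over genes at 5 CPM or more 54.7%) and its edgeR adjusted p 0.294. Its within-cow log2 change then had an SD of 0.89 over the 6 cows, against 0.47 for LPL and 0.56 for CD36. With TMM these SDs were 0.38, 0.81 and 0.51. FABP3 was thus the steadiest of the 3 within cows with TMM but not with library totals. Ratios of counts within a library need no scaling. Cow took 78.4% of the variance of the log2 ratio of CD36 to FABP3, 67.0% of that of LPL to FABP3 and 52.4% of that of LPL to CD36. No such share was computed for other pairs of genes, so whether these are high for a pair was not tested.

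LPL and CD36 had the opposite make-up with TMM. Cow took 36.3% of the variance of log2 LPL and 26.7% of that of CD36, below the median over genes at 5 CPM or more. The 2 genes differed in the share of treatment, 0.67% for LPL and 20.9% for CD36 (median over these genes 3.41%). Neither passed the test of lysine. The 2 libraries of a cow differed by a median of 1.65-fold for LPL and 1.45-fold for CD36. That was about as much as the highest and lowest geometric cow means, which were 1.73-fold and 1.37-fold apart. In the edgeR test of differences between cows LPL had an adjusted p of 0.817 and CD36 of 0.946, and neither passed under any alternative. The SD of the log2 level over the 12 libraries was 0.33 for CD36, lower than for all but 15.2% of the genes at 5 CPM or more, against 0.49 for LPL and 0.65 for FABP3. The order of the first 2 turned with library totals alone, with 0.41 for LPL, 0.45 for CD36 and 0.79 for FABP3 (median over these genes 0.72). The cow shares with that scaling were 61.1% for LPL and 64.3% for CD36, close to the 68.0% of FABP3, so the contrast in cow shares was seen with TMM and not with library totals.

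The 3 genes were then compared as pairs. With TMM, LPL and CD36 tended to be high in the same libraries, though no relation between them passed after adjustment. In the control libraries cow 4319 was highest and cow 4383 lowest for both genes, and Pearson's r of their log2 levels was 0.96 over 6 cows (exact permutation p = 0.00833, adjusted p = 0.075 over 9 relations; Spearman rho = 0.89, exact permutation p = 0.0333, adjusted p = 0.30). In the lysine libraries r was 0.70 (exact permutation p = 0.122; rho = 0.71, p = 0.136, adjusted p 0.367 and 0.408). For the within-cow changes r was 0.86 (exact permutation p = 0.0458, adjusted p = 0.206; rho = 0.77, p = 0.103, adjusted p = 0.408). None of these passed the threshold after adjustment. Without the 2 cows farthest from the median of LPL, r was 0.70 in control, 0.54 in lysine libraries and 0.91 for the changes, and without cow 4381 alone it was 0.45 in lysine libraries. The values of r with library totals alone were 0.46 in control, 0.81 in lysine libraries and 0.62 for the changes, so the close relation in the control libraries depends on the scaling.

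FABP3 showed no such pattern with either of them. With LPL its r was -0.12 in control libraries, -0.29 in lysine libraries and -0.57 for the within-cow changes, and rho was 0.09, -0.49 and -0.60 (exact permutation p 0.818, 0.593 and 0.197 for r, and 0.919, 0.356 and 0.242 for rho). With CD36 its r was -0.32, -0.49 and -0.46, and rho -0.31, -0.14 and -0.20 (exact permutation p 0.549, 0.360 and 0.329 for r, and 0.564, 0.803 and 0.714 for rho). Adjusted over the 9 relations, the p of each was at least 0.444 for r and 0.544 for rho. Without the 2 farthest cows r with LPL was 0.91, -0.11 and -0.75, and r with CD36 was 0.35, -0.08 and -0.77. The sign in the control libraries thus rests on cows 4319 and 4383, and without cow 4394 r with LPL in the lysine libraries was 0.20. With library totals alone, r of CD36 with FABP3 was 0.24, 0.185 and 0.53.

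**Figure D3:**
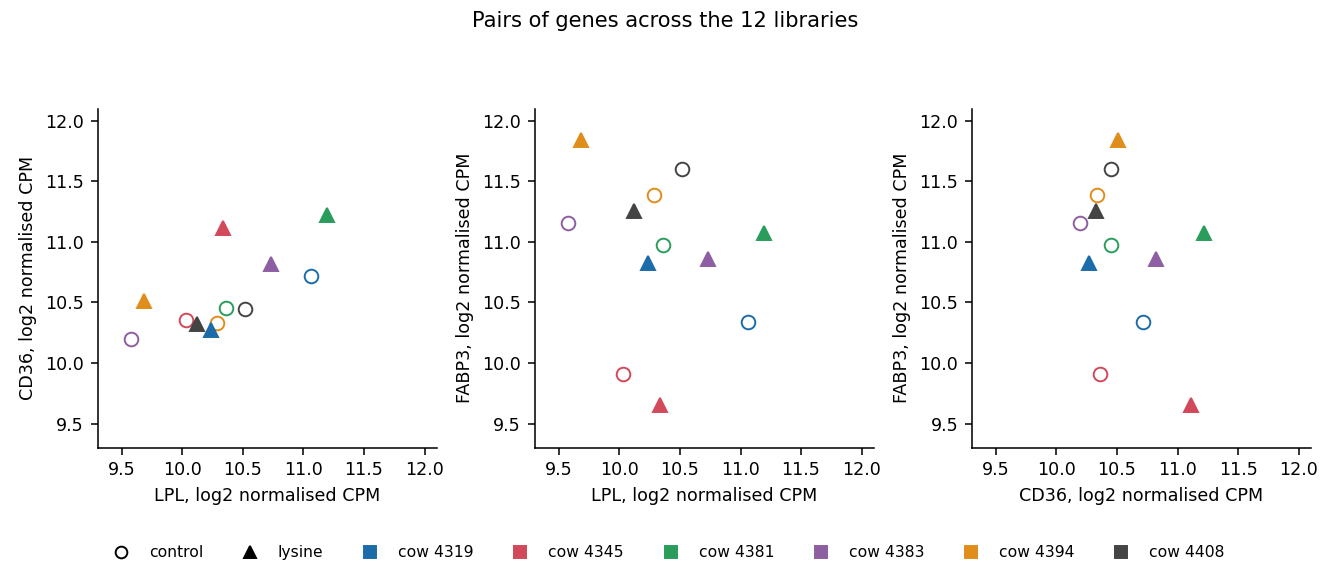
Log2 normalised CPM of each pair of genes; open circles are control and filled triangles lysine libraries, coloured by cow. LPL and CD36 rise together over the 12 points, while the 2 libraries of cow 4345 lie at the bottom and those of cow 4394 near the top of both FABP3 panels.

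Ratios of counts within a library do not depend on the scaling, and they were compared between the 3 pairs. The ratio of LPL to CD36 counts stayed between 0.56 and 1.27 over the 12 libraries, a range of 2.25-fold. The ratio of LPL to FABP3 was lowest, at 0.22, in cow 4394 with lysine and highest, at 1.65, in the control of cow 4319, a range of 7.36-fold. The ratio of CD36 to FABP3 was lowest, at 0.40, in cow 4394 with lysine and highest, at 2.76, in cow 4345 with lysine, a range of 6.95-fold. The SD of the log2 ratio of LPL to CD36 was 0.36. With TMM the SD of the log2 level was 0.33 for CD36 alone and 0.49 for LPL alone. Whether the ratio varied less than that of 2 unrelated genes with these spreads was not tested. Among 7357 other genes at 5 CPM or more, CD36 had the 120th smallest SD of the log2 ratio with LPL, for which the median was 0.72. FABP3 held place 5819 in the same list. In the list of CD36, LPL held place 262, and the median was 0.61.

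Lysine did not shift these ratios past the spread between cows. The log2 ratio of LPL to CD36 changed by -0.22 ± 0.46 (lysine minus control, SD over 6 cows, 95% interval -0.70 to 0.26, lower in 4 of 6; exact sign-flip p = 0.313). That of LPL to FABP3 changed by 0.06 ± 1.08 (95% interval -1.07 to 1.18, higher in 3 of 6 cows; exact permutation p = 0.938). That of CD36 to FABP3 changed by 0.27 ± 0.76 (95% interval -0.53 to 1.07, higher in 4 of 6 cows; exact permutation p = 0.469). Adjusted over the 3 pairs, these p values were 0.703, 0.938 and 0.703. Single cows moved each of these changes: without cow 4394 the 3 values were -0.10, 0.28 and 0.38, without cow 4383 they were -0.37, -0.22 and 0.14, without cow 4319 they were -0.18, 0.33 and 0.51, without cow 4345 they were -0.17, -0.05 and 0.12, and without cow 4381 they were -0.27, -0.08 and 0.19.

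With TMM the within-cow changes of LPL and CD36 tended to move with sequencing depth. The lysine library was the deeper one in 5 of 6 cows, by 0.43 to 2.16 on the log2 scale, and the shallower one in cow 4319, by -2.51. LPL and CD36 were both lower with lysine in cow 4319, and they had their highest changes in cows 4381 and 4383 (LPL) and cows 4381 and 4345 (CD36). Over the 6 cows the change of the library total correlated with that of LPL at r = 0.83 (exact permutation p = 0.0208, adjusted p = 0.0333 over 3 genes; rho = 0.94, exact permutation p = 0.0167, adjusted p = 0.05). With CD36 it was r = 0.84 (exact permutation p = 0.0222, adjusted p = 0.0333; rho = 0.89, exact permutation p = 0.0333, adjusted p = 0.05). With FABP3 it was -0.57 (exact permutation p = 0.218, adjusted p = 0.218; rho = -0.49, exact permutation p = 0.356). For LPL and CD36 the adjusted p of rho was at the threshold of 0.05 and not under it. With median-ratio size factors, another scaling, r was 0.82 for LPL and 0.84 for CD36 (exact permutation p = 0.0236 and 0.025). There rho was 0.94 for LPL (exact permutation p = 0.0167, adjusted p = 0.05). For CD36 it was 0.77 (exact permutation p = 0.103, adjusted p = 0.154). All these relations were computed after the data had been seen.

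Without cows 4319 and 4381, the 2 farthest from the median depth change, r was 0.91 for LPL and 0.48 for CD36, so the relation of CD36 rests in part on those cows. Of the 7358 genes at 5 CPM or more, 3.34% had an r with depth at or above that of LPL and 2.94% at or above that of CD36 (median over genes -0.06). With library totals alone r was 0.32 for LPL, -0.17 for CD36 and -0.83 for FABP3, where the median over genes was -0.59. The part of depth in the within-cow changes of LPL and CD36 was not tested beyond the fit with log2 depth as a covariate, in which the log2 fold change of CD36 was 0.16 and that of LPL -0.13.

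**Figure D4:**
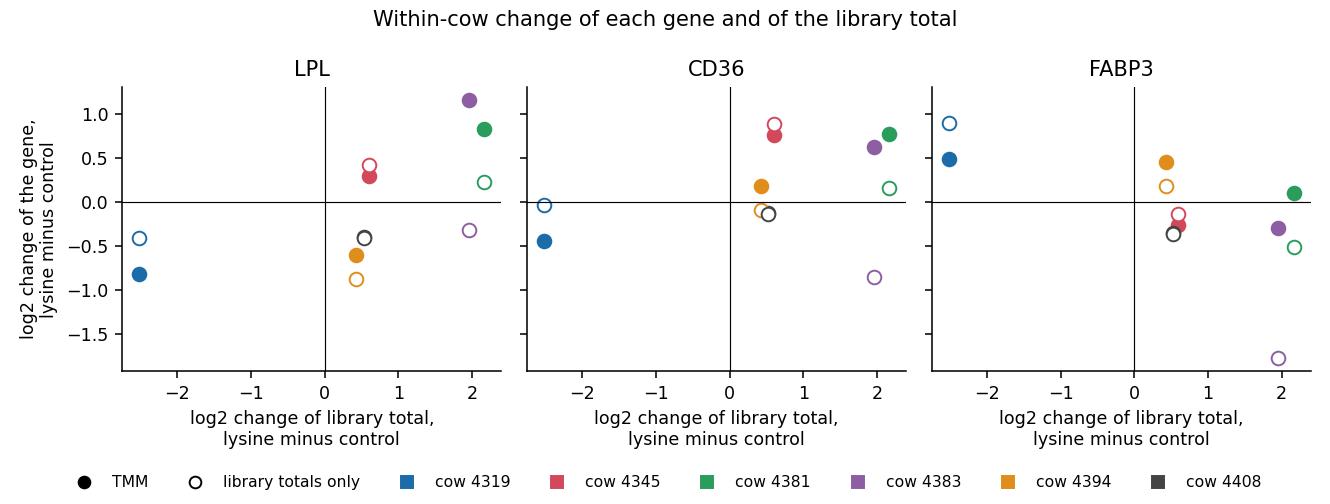
Within-cow log2 change of each gene (vertical axis) against that of the library total (horizontal axis), 1 point per cow and scaling; filled points use TMM and open points library totals alone. With TMM, LPL and CD36 are lowest in cow 4319 on the left and high in cows 4381 and 4383 on the right, and the open points of cow 4383 lie far below its filled ones.

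The sample descriptions also carry a B code (1 or 2, the same for both libraries of a cow) and a P code (1 to 4), neither of them explained in the labels. The within-cow log2 change of LPL was -0.09 ± 1.09 in the 3 cows coded B1 and 0.25 ± 0.62 in the 3 coded B2 (SD). That of CD36 was 0.12 ± 0.54 and 0.47 ± 0.51, and that of FABP3 0.21 ± 0.44 and -0.17 ± 0.24. None of the differences passed the edgeR interaction test (adjusted p 0.898, 0.866 and 0.835), in which 0% of all genes were called and 6.92% had an unadjusted p under 0.05; DESeq2 called 43 genes and limma voom 0, none of them among the 3. In cows 4394 and 4408 the lysine library has the higher P code, and in the other 4 cows the lower one. LPL changed by -0.50 ± 0.15 in those 2 cows and by 0.36 ± 0.87 in the other 4, CD36 by 0.03 ± 0.21 and 0.43 ± 0.58, and FABP3 by 0.05 ± 0.57 and 0.01 ± 0.37 (SD). The edgeR interaction test gave adjusted p values of 0.802, 0.904 and 0.994, with 0% of all genes called and 7.03% at an unadjusted p under 0.05; DESeq2 called 114 genes and limma voom 0, again none of the 3. Without cow 4394 or cow 4408, 1 cow is left with the higher P code, and the test then called 87 and 847 genes, assuming that this cow varies like the others; none of the 3 was among them.

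The level of FABP3, as distinct from its change, was highest in the same 2 cows. All 4 of their libraries lay between 2442 and 3671 normalised CPM and all 8 others between 804 and 2284, a pattern noticed in these data. Of all genes tested, 1.15% had those 4 libraries above the other 8. The geometric mean level of the 2 cows was 1.90 times that of the other 4 (exact permutation p = 0.133 over cows). This test cannot decide: 2 cows against 4 allow too few splits for a p under 0.05, and the pattern came from the same values. With library totals alone the groups overlapped, since the control library of cow 4383 stood at 2829 CPM and the lowest of the 4 at 2588.

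The genes whose pattern over the 12 libraries was most like each of the 3 were found among the 7358 genes at 5 CPM or more, by Pearson's r of log2 CPM. They can be given by ID only. For LPL they were ENSBTAG00000017811 (r = 0.96) and ENSBTAG00000009523 (r = 0.95). For CD36 they were ENSBTAG00000006644 (r = 0.90) and ENSBTAG00000005397 (r = 0.87). For FABP3 they were ENSBTAG00000018115 and ENSBTAG00000016313 (r = 0.98 each). The libraries of a cow share their animal and all values of a library share 1 scale, so these r are descriptions.

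The 3 genes were not each other's nearest neighbours. With LPL, CD36 ranked 256th of 7357 genes (r = 0.68) and FABP3 5228th (r = -0.21). With CD36, LPL ranked 89th and FABP3 6368th (r = -0.37). An r of 0.8 or more was found for 362 genes with FABP3, 83 with LPL and 20 with CD36, but with library totals alone for 775, 44 and 727. With that scaling LPL ranked 2615th with CD36 (r = 0.66, median over genes 0.57) and CD36 ranked 331st with LPL. ENSBTAG00000017811 for LPL and ENSBTAG00000006644 for CD36 were also the most alike with library totals alone, at r = 0.97 and 0.95; for FABP3 another gene came first.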

How the data were processed

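RNA of the milk fat layer was sequenced in 12 libraries, a control and a lysine library from each of 6 cows; the fat was taken off centrifuged milk and its RNA extracted with Trizol and cleaned on a column, per the labels' protocols. The authors deposited whole-number read counts per Ensembl cattle gene ID, not normalized as the values show. Counts cannot show whether material was pooled before sequencing. The sources used here do not give the aligner, counter, strand setting, treatment of reads that match several genes, build or annotation. The 3 IDs came with their gene names; the RefSeq table used here (ARS-UCD2.0) pairs 0 of the IDs with symbols, so the planned lists of other fatty acid genes and cell type markers were not tested, tissue markers were not checked, and no positions or sequences are given. All 12 columns match the description of 1 sample each, and no 2 libraries were identical.

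Genes were kept by filterByExpr (minimum count 10, about 0.48 CPM, in at least 6 libraries; 11323 genes) and fitted across the whole table with edgeR 4.0.16 in R 4.3.3 (TMM, robust quasi-likelihood, two-sided, Benjamini-Hochberg, threshold 0.05). Cow was a block, as both libraries come from 1 animal; deviations from group means correlated at -0.02 to 0.66 within cows (median 0.19, across genes) and -0.03 between cows. Expected counts are a gene's mean normalised level in the other 11 libraries times the library's effective total. Log2 CPM used a prior count of 2 and ratios an offset of 0.5. Permutation tests were exact and two-sided. DESeq2 1.42.0 and limma 3.58.1 voom, other scalings, no filter, a depth covariate, no block and leaving out each cow were alternatives. Fits were also run on counts simulated from the fitted model, which checks the code and not the choice of scaling. The gene rule named the 3 genes and the 2 most alike to each. The genes, lists and tests were chosen with earlier results of these data known.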

Additional observations from a re-analysis of the deposited data

How the results depend on the processing

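No alternative called LPL, CD36 or FABP3 for lysine. With library totals as the only scaling their log2 fold changes were -0.23, -0.0152 and -0.28, and adjusted for log2 depth that of LPL was -0.13; the sign followed the scale given to all genes in the first case, and the cause was not tested in the second. With a cow left out, LPL ranged from -0.14 to 0.26, CD36 from 0.20 to 0.44 and FABP3 from -0.0723 to 0.11. No replicate block gave 0.09, 0.33 and 0.04 and changed no call. Permuting the ratios with no replicate block gave adjusted p values of 0.919, 0.955 and 0.919; with a cow left out, the change of the log2 ratio of LPL to FABP3 ranged from -0.22 to 0.33, that of LPL to CD36 from -0.37 to -0.10 and that of CD36 to FABP3 from 0.12 to 0.51.

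The cow statistic of FABP3 passed with DESeq2 (likelihood ratio statistic 41.9), limma voom (F = 8.90) and without a low-count filter (F = 5.09). Genes called for lysine numbered 0, or 1 without a filter. Genes called between cows numbered 161, 1518 with DESeq2, 568 with limma voom, 396 with library totals alone, 829 without a filter, 18 with the depth covariate and 9 to 429 with a cow left out. Leaving out 1 cow gave 0 to 1 genes for the B code interaction and 0 to 847 for that of the P code; the counts above 0 for the P code, 87 without cow 4394 and 847 without cow 4408, set 1 cow against 4. DESeq2 called 43 and 114 genes in these, the unfiltered fit 30 and 48, and library totals alone 0 and 3. The cause was not tested.

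With a cow left out, r of LPL with FABP3 ranged from -0.50 to 0.32 in control and -0.65 to 0.20 in lysine libraries, and r of CD36 with FABP3 from -0.68 to 0.0664 in control libraries. With library totals alone, r of CD36 with FABP3 was 0.24 in control, 0.185 in lysine libraries and 0.53 for the changes. With library totals alone, r of LPL with CD36 was 0.46, 0.81 and 0.62, and with a cow left out it ranged from 0.93 to 0.99, 0.45 to 0.83 and 0.80 to 0.90. Counting error was at most 2.37% of a value; reads are not independent molecules, so the error of sampling molecules is not known.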
